A study of Mus musculus with 8 samples.

Results

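The transcripts described here belong to 37 genes that bind, activate, transport, oxidise, desaturate, elongate or store fatty acids. They were taken by gene symbol alone, as all array probes annotated to the acyl-CoA dehydrogenase, acyl-CoA synthetase, acyl-CoA oxidase, thioesterase, carnitine acyltransferase, hydratase and isomerase, fatty acid binding protein, desaturase, elongase and perilipin families, without Fabp4 and Plin4. Each gene had 1 probe, so no choice between probes was needed, and the 37 genes are part of 6370 genes with a symbol on an array of 10500 probes. The rule reads gene symbols and no intensity, and it was drawn up with earlier results of these data known.

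The tissue was the extensor digitorum longus (EDL), a fast-twitch hindlimb muscle, of 4 male Swiss Webster mice, an outbred stock, numbered 183, 197, 438 and 440. The stimulated group holds the 4 EDL muscles that were made to contract for 4 h through the sciatic nerve. The contralateral group holds the 4 unstimulated EDL muscles from the opposite legs of the same mice, so that each animal is its own control. The labels give no genetic change and no age, and contralateral muscles come from animals whose other leg was working. Whole muscle was extracted, so for every gene below a smaller number of cells of some type and less RNA per cell cannot be told apart.

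Working muscle draws fatty acids from the blood and from its own lipid droplets. In the cytosol they are carried by binding proteins and joined to coenzyme A by synthetases, a step that thioesterases undo. The carnitine shuttle then moves the acyl groups across the mitochondrial membranes to the enzymes of beta-oxidation, which shorten the chain in repeated rounds. Peroxisomes shorten very long and branched chains, desaturases and elongases remodel fatty acids, and perilipins coat the droplets. Many of these genes are targets of the peroxisome proliferator-activated receptors (PPARs), nuclear receptors that respond to fatty acids, and of the coactivator Ppargc1a.

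Intensities are the authors' normalized values on a linear scale with no physical unit. Array medians lay between 0.90 and 0.94, and between 10367 and 10474 probes had a value per array. All 37 genes were tested, since no filter on level was applied, and 6 of them had at least 1 value below the floor of 0.0937 that was set before taking logarithms. In every mouse the stimulated array had more probes below this floor than the contralateral array. The counts were 1387 against 619 in mouse 183, 708 against 579 in mouse 197, 358 against 238 in mouse 438 and 277 against 80 in mouse 440. A change is the log2 intensity of stimulated minus contralateral muscle, fitted over mice with limma, and its error is limma's moderated standard error (SE). Of 8 markers of fast fibres 7 were measured, and their summed intensity was 4576 to 8643 in stimulated and 6963 to 14743 in contralateral muscle, so the labelled tissue carried its defining transcripts.

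None of the 37 genes passed in either direction at an adjusted p of 0.05 with limma. Of the family genes left out by name, Plin4 passed as lower (change -1.30, adjusted p 0.0117, limma) and Fabp4 did not pass (0.111). Over the whole array 1.34% of 10406 tested probes passed, 1.11% higher and 0.231% lower, so a count of 0 among 37 genes is near the background. At an unadjusted p under 0.05 there were 8 genes, 6 of them lower and 2 higher in stimulated muscle, against 15.2% of all tested probes (8.5% lower and 6.74% higher). The lowest adjusted p among the genes was 0.0971, for Elovl1.

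Most fitted changes were small. Of the 37, 28 were negative and 9 positive, and the median was -0.21 on the log2 scale, beside -0.14 for all tested probes, of which 64.7% were negative. The median size of a change was 1.22-fold, and 1 gene, Fabp5, changed by more than 2-fold in the fit. The 95% interval lay inside a 2-fold change either way for 26 of 37 genes, against 65.5% of all tested probes. For the other 11 a 2-fold change in 1 direction was within the interval, so these data do not bound them that closely. In 36 genes with 8 values the stimulated and contralateral intensities overlapped without exception, where 3.23% of all such probes had groups that did not overlap.

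The spread between animals was wide next to these changes. Contralateral muscles of the 4 mice differed from highest to lowest by 1.27-fold for Plin2 to 7.83-fold for Acot1, with a median of 2.25-fold over the genes. Paired differences within a mouse were more even: 9 genes were lower in stimulated muscle of every mouse (24.3% of the genes, against 16.8% of all tested probes) and 2 were higher in every mouse (5.41%, against 8.57%). The direction counts depend in part on scaling. After cyclic loess normalization, which moved the median of all probes by 0.13 to -0.01, 5 genes were lower in every mouse and 3 higher, and after quantile normalization, with an all-probe median of -0.06, the counts were 7 and 3. Relative to the all-probe median the 37 genes stood at -0.08 on the deposited scale, -0.07 after quantile and -0.08 after cyclic loess normalization.

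**Figure D1:**
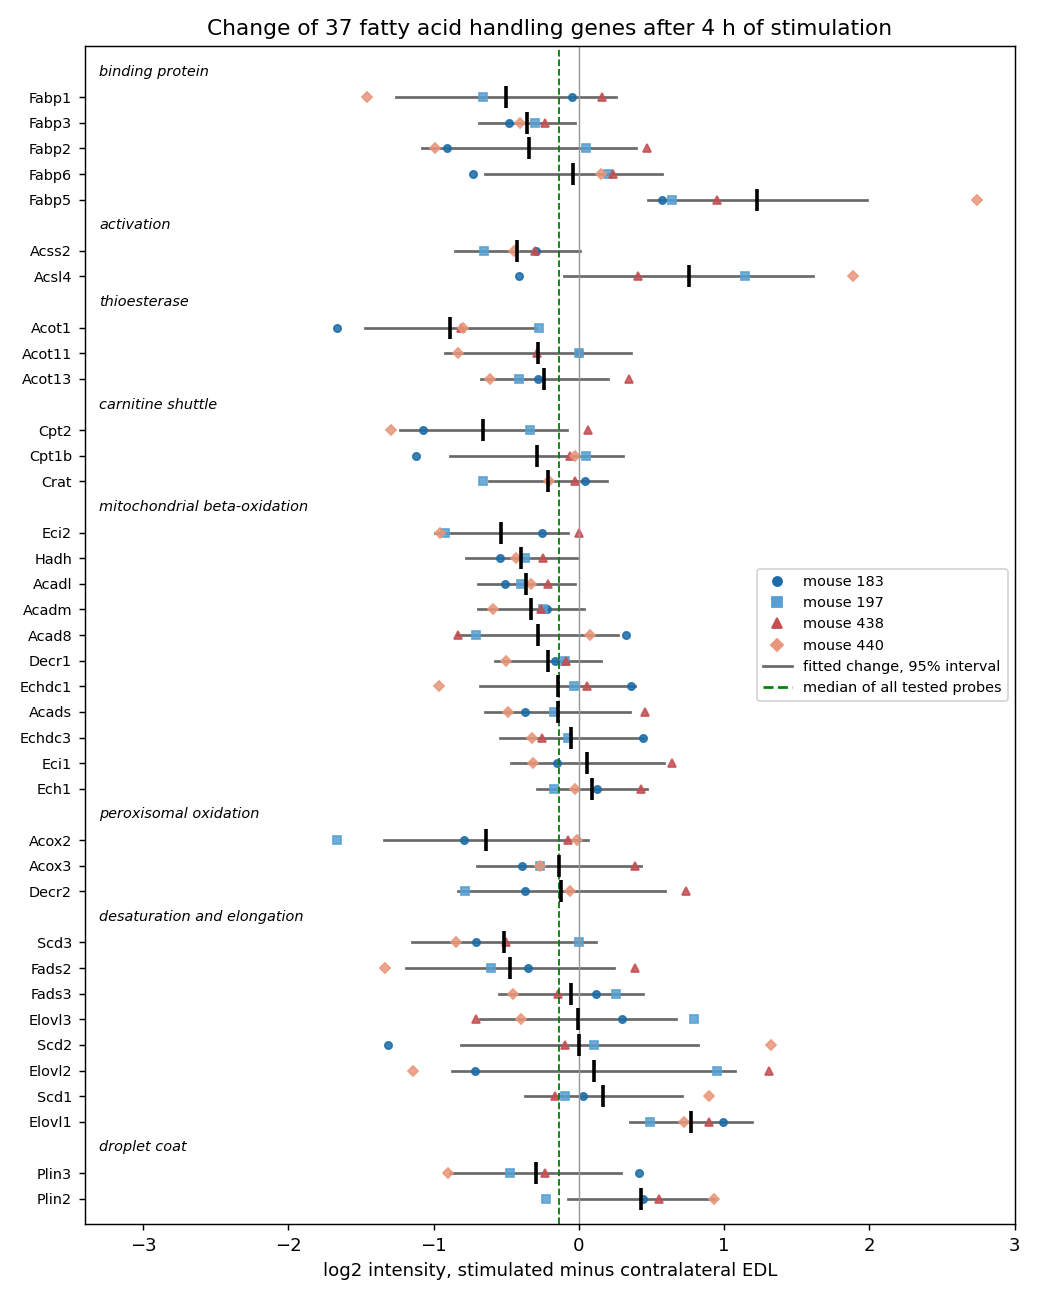
Change of each of the 37 genes, as log2 intensity of stimulated minus contralateral EDL on the x axis, grouped by role down the page. Coloured symbols are the 4 mice, black ticks the fitted change, grey lines its 95% interval, and the green dashed line the median of all tested probes (-0.14). A reader should see that most intervals cross 0, and that the intervals of Elovl1 and Fabp5 lie above 0 and those of 6 genes below it.

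Fatty acid binding proteins carry fatty acids through the cytosol, and Fabp3 is the form of heart and skeletal muscle. Fabp3 had intensities of 211, 151, 210 and 120 in stimulated EDL of mice 183, 197, 438 and 440, against 295, 186, 247 and 159 in their contralateral EDL. Every mouse was lower on the stimulated side, by a similar step, while the groups overlapped because the animals differed in level. The fitted change was -0.35 ± 0.15 (SE, n = 4 mice; 95% interval -0.69 to -0.02), and it did not pass (adjusted p 0.298, limma). It was -0.17 after cyclic loess.

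Fabp5, the epidermal form that macrophages, endothelium and fat cells also make, moved the other way. Its intensities were 14.5, 5.66, 22.5 and 31.6 in stimulated muscle of mice 183, 197, 438 and 440, and 9.74, 3.62, 11.6 and 4.72 in contralateral muscle. All 4 mice were higher on the stimulated side, and mouse 440 stood out with a log2 difference of 2.74 against 0.57 to 0.95 in the others. The change was 1.23 ± 0.33 (n = 4; 95% interval 0.48 to 1.98; adjusted p 0.138, limma), and 0.72 without mouse 440. Within mice 183 and 197 it was 0.61, and within mice 438 and 440 it was 1.85.

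The measured markers of myeloid cells were also high in the stimulated muscle of mouse 440. Of 10 myeloid markers 6 were measured and 0 passed, and their summed intensity was 22.3, 64.8, 90.4 and 568 in stimulated muscle of mice 183, 197, 438 and 440, against 18.5, 47.1, 85.7 and 112 in contralateral muscle. In the stimulated muscle of mouse 440, S100a8 (418) and Cd14 (116) made up most of the 568. S100a8, Cd14 and Fcgr3 were higher on the stimulated side in 4 of 4 mice. Lyz2 (change -0.26) and Itgam (-0.14) were lower in 3 of 4, and Ptprc was split 2 and 2. In mouse 440 the stimulated side was higher for all 6, from 0.43 log2 units for Fcgr3 to 3.57 for Cd14. No measured myeloid marker was below the floor on every array. Of 8 endothelial markers all were measured and 0 passed, and their sum was 154 to 345 in stimulated and 113 to 256 in contralateral muscle, higher on the stimulated side in each mouse. That sum is made up largely of Fabp4, a binding protein of fat cells and capillaries, with 138 to 309 in stimulated and 94.9 to 223 in contralateral muscle. The median change of the 8 was 0.03, with 4 positive and 4 negative (Cdh5 -0.53, Tie1 -0.33, Tek -0.26 and Pecam1 -0.22). Of 9 adipocyte markers 3 were measured, with 1, Plin4, lower and sums of 154 to 331 in stimulated and 121 to 280 in contralateral muscle. Fabp4 makes up most of this sum too, while Plin4 (-1.30) and Retn (-0.57) had negative changes and the median of the 3 was -0.57. Adipoq, which defines adipocytes, was not among the 3. The part of these cells in the Fabp5 values was not tested.

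The remaining binding proteins are typical of other organs and were dim in EDL. Fabp1, the liver form, had 0.085, 0.062, 0.110 and 0.156 in stimulated and 0.097, 0.148, 0.099 and 0.430 in contralateral muscle of mice 183, 197, 438 and 440. Of these values 2 lay below the floor, and 1 mouse, number 440, set most of the fitted change of -0.50 ± 0.34. Fabp2, the intestinal form, changed by -0.34 ± 0.33 with 2 mice in each direction, and Fabp6, the bile acid binding form of the ileum, by -0.04 ± 0.27. Fabp6 turned positive under both other scalings.

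Among enzymes of activation, Acss2, which makes acetyl-CoA from acetate in the cytosol, was lower in every stimulated muscle. It had 3.03, 2.07, 3.33 and 1.82 in stimulated EDL of mice 183, 197, 438 and 440 and 3.72, 3.25, 4.12 and 2.48 in contralateral EDL. The change of -0.42 ± 0.19 did not pass (adjusted p 0.332, limma), and its interval of -0.85 to 0.01 reached 0. Acsl4, a long-chain acyl-CoA synthetase with a preference for arachidonic acid, was near the floor, at 0.112, 0.207, 0.218 and 0.346 in stimulated and 0.149, 0.084, 0.164 and 0.060 in contralateral muscle. The contralateral values of mice 197 and 440 lay below the floor, so the log2 differences of 1.15 and 1.88 in these mice depend on it. Acsl4 was higher in 3 of 4 mice and lower in mouse 183, with a change of 0.76 ± 0.38 (adjusted p 0.362, limma). It was 0.38 without mouse 440, 1.15 without mouse 183 and 0.23 when the floor was raised to the 20th percentile.

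Thioesterases release free fatty acids from coenzyme A. Acot1, the cytosolic enzyme and a PPAR target in mouse liver and heart, had 1.36, 0.455, 0.689 and 0.716 in stimulated muscle of mice 183, 197, 438 and 440, against 4.30, 0.549, 1.21 and 1.24 in contralateral muscle. It was lower on the stimulated side in all 4 mice, most in mouse 183, whose contralateral muscle held the highest level. The change of -0.89 ± 0.26 (95% interval -1.47 to -0.30) was the most negative of the 37 and did not pass (adjusted p 0.169, limma). It was -0.63 without mouse 183 and -1.09 without mouse 197, -0.97 within mice 183 and 197 and -0.80 within mice 438 and 440, and -0.90 after cyclic loess.

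Acot13, a mitochondria-associated thioesterase, had 31.7, 21.2, 81.5 and 27.0 in stimulated and 38.5, 28.1, 64.2 and 41.1 in contralateral muscle of the same mice. Mouse 438 was higher and the other 3 lower on the stimulated side, for a change of -0.24 ± 0.19. Acot11, named for its induction in brown fat, was at 0.072 and 0.074 in stimulated and 0.089 and 0.080 in contralateral muscle of mice 183 and 197, all below the floor. In mice 438 and 440 it had 0.222 and 0.151 in stimulated and 0.271 and 0.268 in contralateral muscle, so its change of -0.28 ± 0.28 rests on these 2 animals.

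The carnitine shuttle gave no call in 3 genes. Cpt2, the inner-membrane carnitine palmitoyltransferase that returns acyl groups to coenzyme A, had 2.56, 2.12, 5.10 and 2.27 in stimulated muscle of mice 183, 197, 438 and 440, and 5.39, 2.67, 4.87 and 5.56 in contralateral muscle. Mice 183 and 440 were lower by more than 1 log2 unit, mouse 197 by 0.33, and mouse 438 was higher by 0.07. The change of -0.66 ± 0.26 (95% interval -1.23 to -0.08) did not pass (adjusted p 0.273, limma).

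Cpt1b, the muscle enzyme of the outer membrane that sets the rate of entry, was 0.680, 1.57, 0.411 and 0.315 in stimulated and 1.48, 1.52, 0.429 and 0.322 in contralateral muscle. Its change of -0.29 ± 0.27 came from mouse 183 (-1.12), while the other 3 lay between -0.06 and 0.05. Crat, which buffers acetyl-CoA as acetylcarnitine, had 32.8, 21.7, 47.3 and 21.6 in stimulated and 31.8, 34.4, 48.3 and 25.0 in contralateral muscle. Mouse 197 alone differed by more than 0.25 log2 units, and the change was -0.21 ± 0.18.

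Of 11 genes placed under mitochondrial beta-oxidation by symbol alone, 0 passed, 9 were negative and 5 were lower in every mouse, with a median of -0.21. Not all of them belong to that pathway. The group takes in Acad8 of the valine pathway and Echdc1, which removes ethylmalonyl-CoA, and both are among the 9. The count of 9 negative genes was also found after quantile and cyclic loess normalization, where the medians were -0.20 and -0.13, and the genes lower in every mouse became 3 and 2. Acadl, the long-chain acyl-CoA dehydrogenase that opens each round of oxidation, had 185, 115, 251 and 184 in stimulated muscle of mice 183, 197, 438 and 440, against 262, 152, 290 and 232 in contralateral muscle. Each mouse was lower on the stimulated side, by 0.21 to 0.51 log2 units, within an overlap of the groups. The change of -0.36 ± 0.15 (95% interval -0.69 to -0.03) did not pass (adjusted p 0.291, limma), and was -0.18 after cyclic loess, where 3 of 4 mice were lower.

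Hadh, the short- and medium-chain hydroxyacyl-CoA dehydrogenase of the third step, was 13.2, 11.1, 10.8 and 7.11 in stimulated muscle of mice 183, 197, 438 and 440, and 19.2, 14.4, 12.8 and 9.61 in contralateral muscle. It too was lower in every mouse, also after both other scalings, with a change of -0.40 ± 0.17 (95% interval -0.78 to -0.02; adjusted p 0.312, limma). Eci2, an isomerase of unsaturated chains that was placed here by symbol, had 55.2, 26.8, 69.2 and 43.0 in stimulated and 65.8, 50.8, 69.3 and 83.6 in contralateral muscle. Mice 197 and 440 were lower by 0.92 and 0.96, mouse 183 by 0.26, and mouse 438 showed almost equal values, for a change of -0.53 ± 0.20 (adjusted p 0.266, limma).

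The medium-chain dehydrogenase Acadm was lower in every mouse, by 0.22 to 0.59, with a change of -0.33 ± 0.16, and its intensities ran from 28.7 to 53.7 in stimulated and 34.1 to 64.5 in contralateral muscle. Decr1, a reductase for unsaturated chains, was lower by 0.09 to 0.50 in each mouse, with a change of -0.21 ± 0.16. The short-chain dehydrogenase Acads (-0.14 ± 0.22), the valine pathway dehydrogenase Acad8 (-0.28 ± 0.25), Echdc1 (-0.14 ± 0.24), which removes ethylmalonyl-CoA, and Echdc3 (-0.05 ± 0.22) had mice on both sides of 0. The isomerases Ech1 (0.09 ± 0.17) and Eci1 (0.06 ± 0.23, n = 3 mice) were the positive members, and the contralateral muscle of mouse 197 had no value for Eci1, so that pair was left out of its fit.

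Transcripts of the fast fibre apparatus were lower beside these enzymes. All 7 measured fast fibre markers had negative changes, with a median of -0.49 and 0 called, and their sum was lower on the stimulated side in 4 of 4 mice. Of 6 slow fibre markers 3 were measured. Their fitted changes were all positive, with a median of 1.04 and 0 called. They summed to 16.1 to 69.7 in stimulated and 7.91 to 37.0 in contralateral muscle. Tnnt1 was higher on the stimulated side in 4 of 4 mice. Tnni1 and Tnnc1 were higher in 3 of 4 mice. In mouse 440 both were lower on the stimulated side, at 4.24 against 6.61 for Tnni1 and 3.45 against 3.47 for Tnnc1. The sum in that mouse was 39.4 in stimulated and 37.0 in contralateral muscle. Changes of the fibre markers were not computed after quantile or cyclic loess normalization. The part of fibre composition in the enzyme values was not tested.

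**Figure D2:**
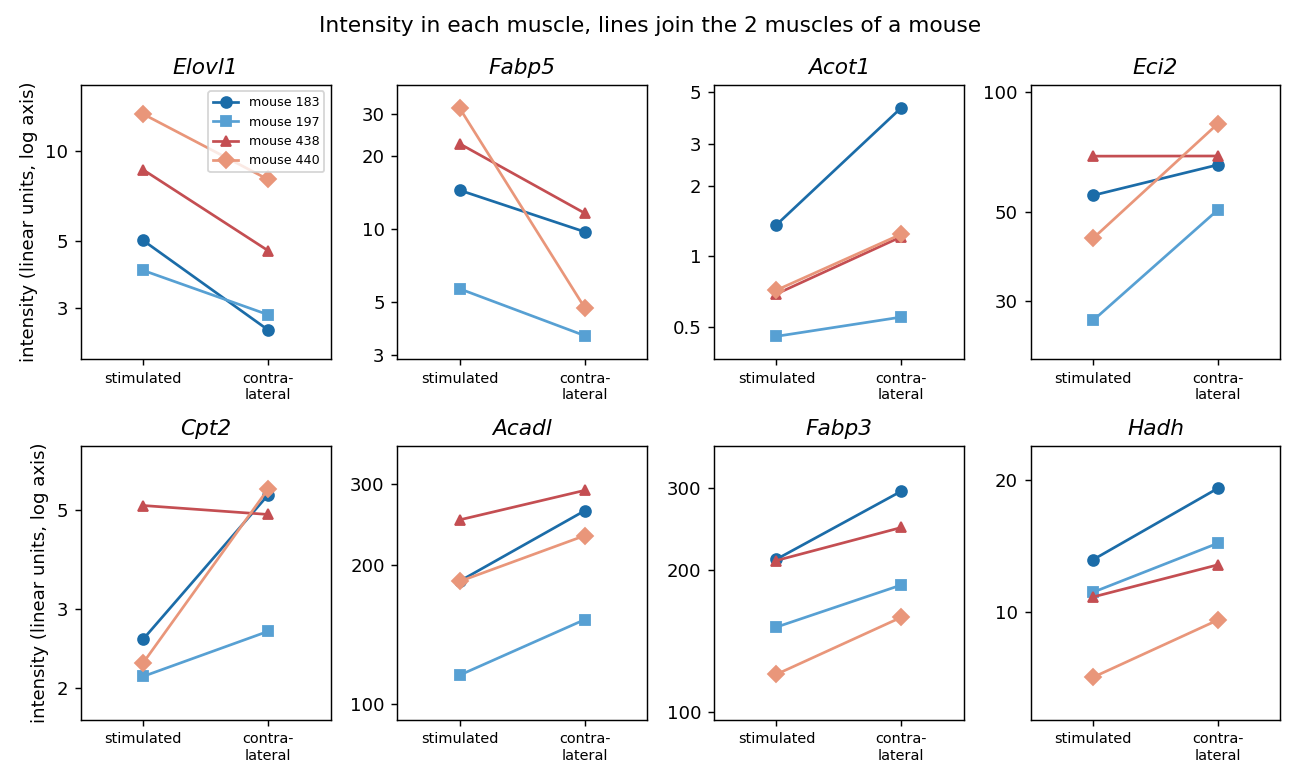
Intensity on a log axis in stimulated (left) and contralateral (right) EDL for the 8 genes at unadjusted p under 0.05, with 1 line per mouse. Fabp3, Acadl and Hadh show 4 near-parallel lines that are lower on the stimulated side, Elovl1 and Fabp5 are higher there in all 4 mice, and mouse 440 has the steepest line for Fabp5.

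The 3 genes placed under peroxisomal oxidation by symbol had low intensities. Acox2, the oxidase of branched chains and bile acid precursors, had 0.256, 0.450, 0.414 and 0.447 in stimulated muscle of mice 183, 197, 438 and 440, against 0.443, 1.43, 0.437 and 0.451 in contralateral muscle. The contralateral muscle of mouse 197 and the stimulated muscle of mouse 183 stood apart, and mice 438 and 440 were nearly level. The change was -0.64 ± 0.31 (adjusted p 0.355, limma). It was -0.29 without mouse 197, -1.23 within mice 183 and 197 and -0.04 within mice 438 and 440.

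Acox3, a second oxidase of branched chains, had 0.433, 0.295, 0.496 and 0.291 in stimulated and 0.569, 0.355, 0.380 and 0.350 in contralateral muscle, with a change of -0.14 ± 0.25. For Decr2, the peroxisomal counterpart of Decr1, the values were 0.131, 0.143, 0.156 and 0.151 in stimulated and 0.170, 0.246, 0.089 and 0.157 in contralateral muscle, with a change of -0.12 ± 0.32. In both, mouse 438 was higher and the other 3 lower on the stimulated side. Acox3 turned positive after quantile normalization, and Decr2 after quantile and cyclic loess normalization.

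The lowest p of the 37 genes belonged to Elovl1, an elongase that extends saturated and monounsaturated chains to very long ones, used in sphingolipids. It had 5.04, 4.00, 8.66 and 13.3 in stimulated muscle of mice 183, 197, 438 and 440, against 2.54, 2.85, 4.66 and 8.04 in contralateral muscle. All 4 mice were higher on the stimulated side, by 0.49 to 0.99 log2 units, although the animals differed by 3.17-fold on the contralateral side. The change was 0.77 ± 0.19 (95% interval 0.35 to 1.19) and did not pass (adjusted p 0.0971, limma). It ranged from 0.70 to 0.87 when 1 mouse was left out, was 0.74 within mice 183 and 197 and 0.81 within mice 438 and 440, and was 0.77 and 0.82 after quantile and cyclic loess normalization, with an adjusted p of 0.0637 after the last and 0.997 without mouse as a block.

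Because PPARs act on many of these genes, promoter windows from RefSeq on build GRCm38.p6, 250 bases before to 50 after a start site, were searched for the receptors' element, a direct repeat spelled AGGTCANAGGTCA, on both strands with at most 1 mismatch. Windows were found for 29 of the 37 genes, 34 windows in all. The match was found in 2 genes, Elovl1 and Fabp1, in 1 window each, that is in 2 of the 34 windows. Of all 32851 windows 0.554% held one. The element of the estrogen-related receptors, TCAAGGTCA, searched without mismatch on both strands, was in 0 of the 34 windows of these genes and in 0.423% of all windows. The windows with a match are shown, with that of Acot1, the gene with the most negative change, for comparison; capitals mark the match, which reads on the opposite strand as AGGCCACAGGTCA in Elovl1 and AGGCCATAGGTCA in Fabp1. The match begins at -95 from the start site in Elovl1, which has a further start site whose window held none, and at -67 in Fabp1. The windows lie on the plus strand at chr4:118429451-118429750 for Elovl1, chr6:71199629-71199928 for Fabp1 and chr12:84009252-84009551 for Acot1.
Elovl1: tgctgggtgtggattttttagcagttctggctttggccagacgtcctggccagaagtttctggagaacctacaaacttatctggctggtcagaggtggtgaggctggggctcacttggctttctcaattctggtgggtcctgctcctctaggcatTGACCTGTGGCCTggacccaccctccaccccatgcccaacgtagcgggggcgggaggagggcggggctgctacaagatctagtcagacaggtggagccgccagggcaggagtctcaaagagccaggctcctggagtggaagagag
Fabp1: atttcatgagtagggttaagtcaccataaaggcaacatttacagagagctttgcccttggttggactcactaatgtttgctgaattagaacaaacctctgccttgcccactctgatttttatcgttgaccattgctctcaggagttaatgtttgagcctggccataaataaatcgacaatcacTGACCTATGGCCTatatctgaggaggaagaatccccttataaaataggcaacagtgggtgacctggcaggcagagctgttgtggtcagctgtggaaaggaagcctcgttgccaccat
Acot1: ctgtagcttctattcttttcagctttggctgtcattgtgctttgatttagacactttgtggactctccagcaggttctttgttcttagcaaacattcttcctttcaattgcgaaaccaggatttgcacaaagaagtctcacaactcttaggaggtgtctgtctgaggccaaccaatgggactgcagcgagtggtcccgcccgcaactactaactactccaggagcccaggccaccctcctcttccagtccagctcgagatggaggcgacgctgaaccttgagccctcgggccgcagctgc
A match of letters is a description and no site of binding. The 2 genes with a match had changes of 0.77 and -0.50, of opposite sign.

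Among the other remodelling enzymes 0 passed, and those named here were dim or had mice on both sides of 0. Scd3, one of the stearoyl-CoA desaturases, had 0.066, 0.050, 0.154 and 0.187 in stimulated and 0.153, 0.068, 0.219 and 0.336 in contralateral muscle of mice 183, 197, 438 and 440. With 3 of these values below the floor, its change of -0.51 ± 0.28 rests on 3 mice, all lower. Fads2, the delta-6 desaturase, had 0.144, 0.184, 0.301 and 0.163 in stimulated and 0.184, 0.279, 0.229 and 0.411 in contralateral muscle, with mouse 438 higher, the others lower and a change of -0.47 ± 0.32.

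Scd1, the main desaturase of fat and liver, changed by 0.17 ± 0.24, and Scd2, its relative in brain and other tissues, by 0.0042 ± 0.36. In both genes mouse 440 had the highest difference, 0.90 for Scd1 and 1.32 for Scd2, and without it the changes were -0.07 and -0.44. Fads3 (-0.05 ± 0.22), Elovl2 (0.10 ± 0.43), an elongase of polyunsaturated chains with 4 values below the floor, and Elovl3 (-0.0044 ± 0.30) were each split between 2 higher and 2 lower mice.

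Perilipins coat lipid droplets, and Plin2 is the form found on droplets of most tissues. It had 5.19, 3.78, 5.76 and 9.23 in stimulated muscle of mice 183, 197, 438 and 440, against 3.82, 4.42, 3.93 and 4.84 in contralateral muscle. Mice 183, 438 and 440 were higher and mouse 197 lower on the stimulated side, for a change of 0.43 ± 0.22 (95% interval -0.08 to 0.93; adjusted p 0.378, limma). Plin3, a coat of young droplets, had 1.23, 1.01, 0.735 and 0.365 in stimulated and 0.917, 1.40, 0.863 and 0.684 in contralateral muscle, lower in 3 of 4 mice, with a change of -0.30 ± 0.26.

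**Figure D3:**
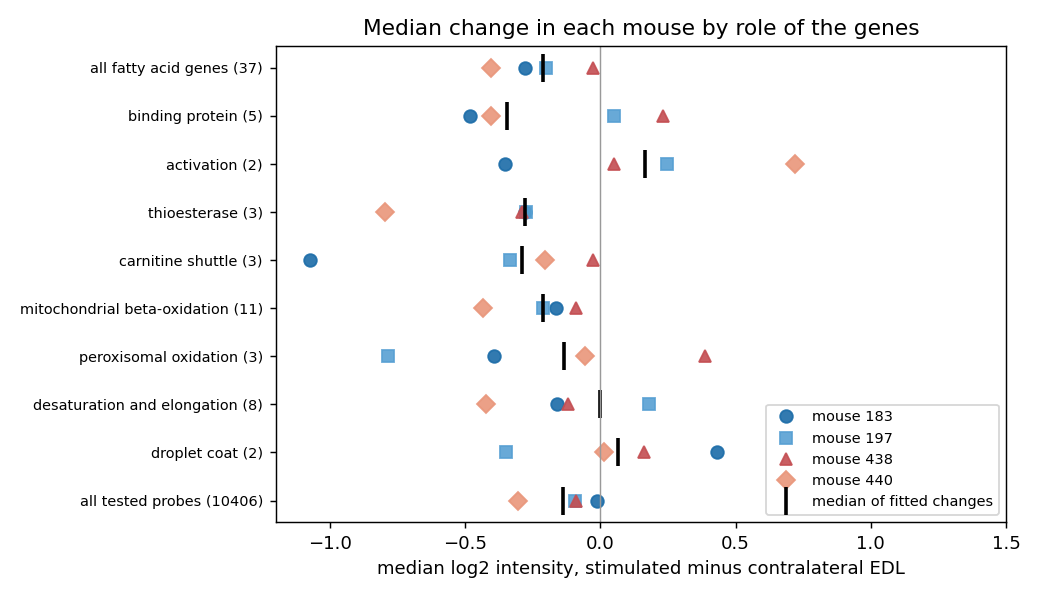
Median log2 intensity difference, stimulated minus contralateral EDL, over the genes of each role in each mouse (coloured symbols), with the median of fitted changes as a black tick and the number of genes in brackets. Over all 37 genes the mice sit between -0.40 in mouse 440 and -0.03 in mouse 438, and over all tested probes between -0.30 and -0.01.

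By mouse, the median over the 37 genes was -0.28, -0.20, -0.03 and -0.40 in mice 183, 197, 438 and 440, beside -0.01, -0.09, -0.09 and -0.30 for all tested probes. The arrays of mice 183 and 197 differed from those of mice 438 and 440 in which probes had values, as 56 probes were empty on all arrays of mice 183 and 197 and on no other, and 25 the other way round. Within mice 183 and 197 the median over the genes was -0.29, beside -0.07 for all probes, a difference of -0.22. Within mice 438 and 440 it was -0.27, beside -0.20, a difference of -0.07. An interaction term for these 2 pairs of mice gave an unadjusted p under 0.05 for 0 of the 37 genes, against 319 of the 10406 tested probes. A count of 0 among 37 genes is near that share, and 0 probes passed after adjustment.

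The regulators and partners of this pathway included genes that did pass. Of 61 listed genes of fatty acid uptake, storage and control that lie outside the 37, 34 were measured, 1 rose, 4 fell and 29 did not pass, with a median of -0.34. Over all tested probes 1.11% passed as higher and 0.231% as lower, and the median was -0.14. The median of the list was not computed under the other scalings. The list was drawn up with the results for Pdk4, Ucp3, Txnip, Plin4 and Ppargc1a in these samples already known, so its count is no independent evidence. Ppargc1a, the coactivator of mitochondrial and oxidation genes, rose 5.18-fold, with 11.0, 13.4, 10.8 and 3.19 in stimulated muscle of mice 183, 197, 438 and 440 against 2.72, 2.21, 1.38 and 0.852 in contralateral muscle (log2 change 2.37 ± 0.23, adjusted p 0.0035, limma). It also passed with each mouse left out in turn.

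Pdk4, the kinase that spares glucose when fatty acids are burned and a PPAR target, fell by 1.59 ± 0.27 on the log2 scale, and Ucp3, a mitochondrial carrier that fatty acids induce, by 1.49 ± 0.26. The thioredoxin-binding protein Txnip fell by 1.37 ± 0.19 and the droplet coat Plin4 by 1.30 ± 0.18. All 4 were lower in 4 of 4 mice, and all 4 missed the threshold without mouse 183, with adjusted p of 0.126, 0.145, 0.0946 and 0.0940 from limma. Pdk4 and Txnip also missed it without mouse 197 (0.111 and 0.0633) and Ucp3 without mouse 438 (0.0960), and Pdk4 after cyclic loess (0.0532). Without the intensity trend the 4 missed it as well (0.0832, 0.0810, 0.0558 and 0.0551), and Ppargc1a passed (0.0181). Within mice 183 and 197 none of the 5 passed (0.307 to 0.563), where 0 of all probes did, and within mice 438 and 440 Ppargc1a (0.0185) and Ucp3 (0.0263) passed and Pdk4 (0.104), Txnip (0.186) and Plin4 (0.0728) did not. Of these 5 genes 0 passed with the floor at the 20th percentile (adjusted p 0.136 to 0.278) or without mouse as a block (0.245 to 0.997). Lpin1, a phosphatidate phosphatase of fat synthesis that also assists Ppargc1a, was lower in every mouse, by 0.37 to 1.56 (95% interval -1.46 to -0.55), and did not pass (adjusted p 0.0516, limma), except without mouse 438, where its change was -1.22 (adjusted p 0.0392).

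**Figure D4:**
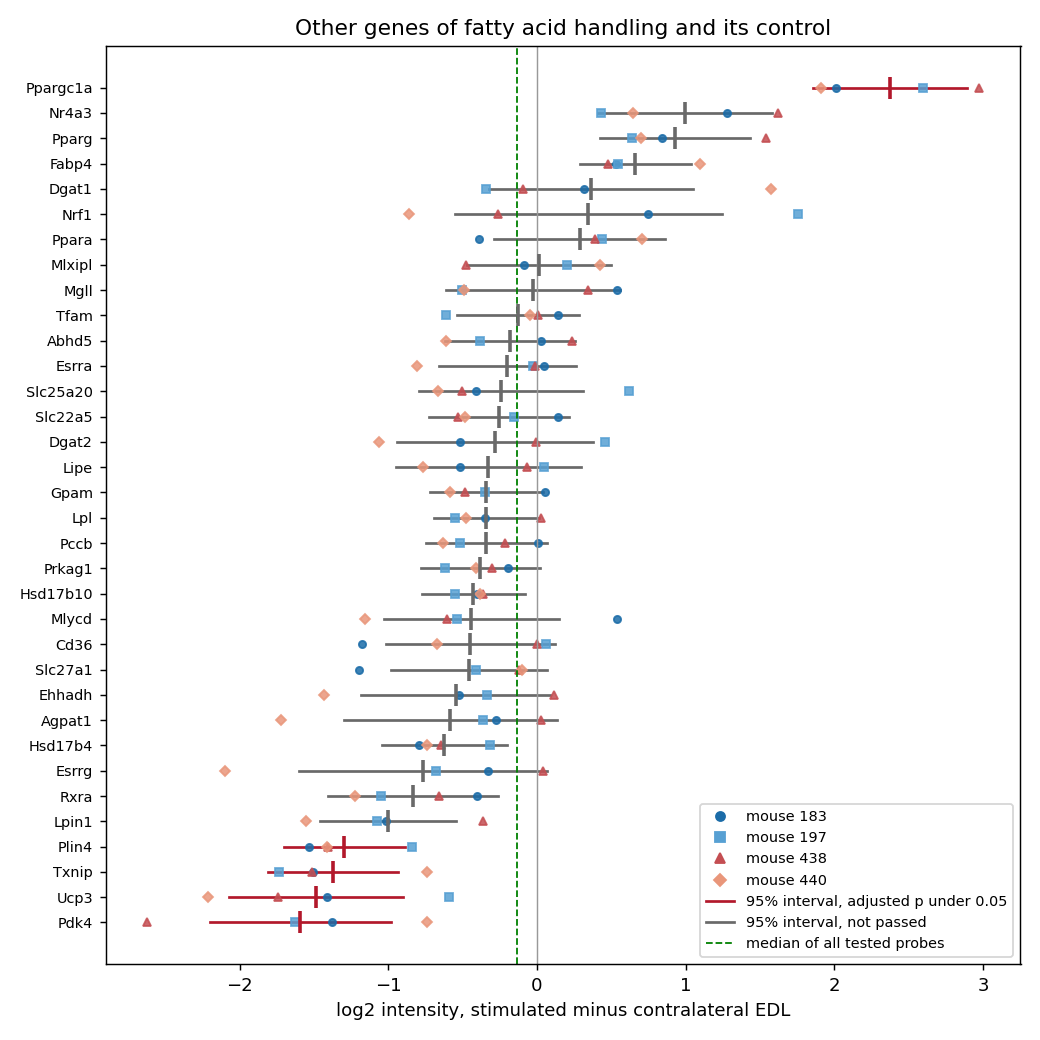
Changes of the 34 measured genes of fatty acid handling and control outside the 37, as log2 intensity of stimulated minus contralateral EDL, with the 4 mice as symbols and 95% intervals as lines. Red intervals mark the 5 genes that passed: Ppargc1a above 0, and Plin4, Txnip, Ucp3 and Pdk4 below it.

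With Ppargc1a up 5.18-fold in the same muscles, the 37 genes had fitted changes from -0.89 for Acot1 to 1.23 for Fabp5. The 95% intervals of Acadl, Acadm, Hadh, Decr1, Cpt1b and Crat all lay inside a 2-fold change in either direction, and that of Cpt2 reached beyond it. Those of Acadl (-0.69 to -0.03), Hadh (-0.78 to -0.02) and Cpt2 (-1.23 to -0.08) lay below 0, and none of these genes passed. A link of these changes to Ppargc1a was not tested. Sampling was at 4 h alone, and later times were not analysed here.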

How the data were processed

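RNA of 8 muscles was amplified as biotinylated cRNA, with 6 bacterial mRNAs as controls, and read on CodeLink arrays of 1 colour, per the labels' protocols. The deposited table holds intensities normalized by the authors on a linear scale, and its background correction and exact scaling are not given in the sources used here. Values were used as deposited, raised to a floor of 0.0937 (the 5th percentile of positive values) and put on the log2 scale. Probe symbols come from the platform annotation, and all 6373 were updated by Entrez identifier. Probes with at least 3 mice complete in both muscles, 10406 in all, were fitted with limma 3.58.1 (R 4.3.3), using mouse as a block, an intensity trend, and Benjamini-Hochberg adjustment over all of them. The pairing comes from the titles, which give each control as the opposite muscle of the same mouse. Deviations from group means correlated at 0.52 to 0.64 within pairs. Correlations between muscles of different mice were not computed, so these values do not test the pairing. The 37 genes, their roles and the lists were chosen with earlier results of these data known. All 37 are named, with values in every array for the 3 of smallest p in each role; of the list outside the 37, the genes that passed and the 6 of smallest p are named. Tested on simulated data made from 10245 probes of this comparison, the fit recovered 0% of 1.32-fold, 14.0% of 2-fold and 63.2% of 4-fold changes, with 3.95% false calls. The number of arrays, 4 per group, limits the precision, and the SE of a gene's change was 0.15 to 0.43. Alternatives were other floors and scalings, no block, no trend, no moderation, no dim probes, and each mouse or pair of mice left out.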

Additional observations from a re-analysis of the deposited data

Results flagged for a closer look

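In 4 genes, 1 muscle stood apart from the other 3 of its group, judged by the gap to the nearest value divided by the group's range; 85 groups of 4 were examined and 5 exceeded the 95% critical value of Dixon's ratio, where chance gives about 1 in 20. For Acox2 the contralateral muscle of mouse 197 was high (ratio 0.974; 1.43 against 0.437 to 0.451 in the others), and the stimulated muscle of mouse 183 was low (ratio 0.855). For Acox3 the contralateral muscle of mouse 183 was high (ratio 0.834). Outside the 37 genes, the stimulated muscle of mouse 440 was low for Ppargc1a (ratio 0.849; 3.19 against 10.8 to 13.4), and the contralateral muscle of mouse 197 was low for Plin4 (ratio 0.860).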

How the results depend on the processing

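None of the 37 genes was called in either direction under any alternative run that tested it. Without the dimmest 50% of probes 23 were tested, with a median of -0.21 beside -0.09 for all probes, of which 109 were called. Without mouse 183, 438 or 440, and within mice 183 and 197, 36 were tested. The median change of the tested genes was negative under all runs. It was -0.31 to -0.12 when 1 mouse was left out (without mice 438 and 440) and -0.09 after cyclic loess. The alternative of averaging several probes per gene could not differ, as each gene had 1 probe. Against 139 probes called over the whole array, 0 were called with the floor at the 20th percentile (1296 at unadjusted p under 0.05), 0 by the paired test without moderation (1208), 50 without the intensity trend, 7 to 176 when 1 mouse was left out (7 without mouse 183 and 67 without mouse 197), 0 within mice 183 and 197 and 69 within mice 438 and 440. Without mouse as a block, that is without the pairing, 1 probe was called. Of 463 recomputed changes of the 37 genes, 428 did not turn their sign, among them Acot11 within mice 183 and 197, which was 0. The other 35 turned it, in 13 genes with small changes. After quantile normalization these were Acox3 (0.027), Decr2 (0.069), Elovl3 (0.047), Fabp6 (0.17) and Scd2 (-0.079); after cyclic loess Acot11 (0.056), Decr2 (0.20), Elovl3 (0.13) and Fabp6 (0.12); with the floor at the 20th percentile Fabp6 (0.036); without the block Eci1 (-0.22). Within mice 183 and 197 they were Ech1 (-0.025), Echdc1 (0.16), Echdc3 (0.18), Elovl3 (0.54), Fads3 (0.19), Scd1 (-0.030) and Scd2 (-0.60), and within mice 438 and 440 Acox3 (0.059), Decr2 (0.34) and Fabp6 (0.19). With 1 mouse left out the ranges crossed 0 for Decr2 (-0.41 to 0.10), Ech1 (-0.026 to 0.18), Echdc1 (-0.31 to 0.13), Echdc3 (-0.22 to 0.038), Elovl2 (-0.30 to 0.52), Elovl3 (-0.27 to 0.23), Fabp6 (-0.13 to 0.19), Fads3 (-0.16 to 0.078), Scd1 (-0.074 to 0.28) and Scd2 (-0.44 to 0.44). The cause was not tested. In the 6 genes with values below the floor, those values give only a bound on the level.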
